A study of Homo sapiens with 6 samples.

Results

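The genes described here are those of the unfolded protein response and the integrated stress response, measured in H9 human embryonic stem cell clones that carried one of 3 lentiviral vectors. The list was drawn up by function, as ATF4 pathway, endoplasmic reticulum (ER) chaperone, ER-associated degradation and amino acid synthesis genes. It was chosen with earlier results of these data known. Of its 46 genes, 30 had a named row on the array, out of 14884 named genes in all. A gene with more than 1 row was read from its brightest row.

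H9 is an established human embryonic stem cell line. Each group had 2 arrays, 6 in all, and each array held total RNA of an H9 clone. CTRL clones carried the vector pHIV-EF1α-IRES-eGFP. The gamma_ON clones carried the same vector with H2A.XS139E, a form of the histone variant H2A.X in which a glutamate replaces the serine that is phosphorylated at DNA breaks. The gamma_OFF clones carried it with H2A.XT136S139AA, in which alanines replace that serine and a nearby threonine. The EF1α promoter drove the transgene in every group, and all cells also expressed eGFP. Cells double positive for GFP and TRA 1-60 were sorted and plated singly, and colonies were expanded on mouse embryonic fibroblast feeders in medium conditioned by such cells, with 8 ng/ml bFGF. No group analysed here carried unmutated H2A.X, so an effect of a substitution and an effect of added H2A.X cannot be told apart against CTRL. Whether the replicates of a vector were different clones or different cultures is not given, so the p-values describe only how far these samples spread, and that spread may be technical. Precision is limited by having 2 arrays a group.

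Cells sense unfolded protein in the ER through 3 membrane proteins. PERK, encoded by EIF2AK3, phosphorylates the translation factor eIF2α, which slows translation in general and favours translation of the ATF4 mRNA. ATF4 then drives genes of amino acid supply, tRNA charging and stress-induced growth arrest. GCN2, encoded by EIF2AK4, reaches the same node when amino acids are short. ATF6 is cut free of the membrane and drives ER chaperone genes, and IRE1, encoded by ERN1, splices the XBP1 mRNA into a form that drives folding and degradation genes. Pluripotent cells are known to be sensitive to disturbed protein folding. Much of this control acts on translation, protein cleavage and splicing, which a gene-level array does not measure.

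The branches differ in how fully they were measured. Of the ATF4 branch, 17 of 21 genes had a named row, namely 7 of 10 stress regulators, 5 of 6 amino acid synthesis genes and 5 of 5 tRNA ligase genes. Of the ATF6 branch, 6 of 12 had one, namely CALR, CANX, HYOU1, CRELD2, MANF and SDF2L1. The XBP1 branch was represented by 1 of 7 genes, SEL1L. All 6 sensors and branch factors were measured. No value is given for CHAC1, CEBPB, PPP1R15A and MTHFD2 of the ATF4 branch. The same holds for HSPA5, which encodes the chaperone BiP, and for HSP90B1, PDIA3, PDIA4, PDIA6 and HERPUD1 of the ATF6 branch. It holds for DNAJB9, DNAJC3, DNAJB11, HSPA13, SYVN1 and EDEM1 of the XBP1 branch as well, so these genes were not analysed here.

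Some promoters of the members hold known recognition letters of these pathways. RefSeq promoters of the build GRCh38.p14 were found for 43 of the 46 members, and 4 motifs were searched on both strands in the 250 bases before each start site. The ER stress response element, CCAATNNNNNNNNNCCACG, stood in 6 of the 43 members and in 0.0806% of 27305 promoters of all genes. Its second form, ATTGGNCCACG, stood in 3 members and in 0.0513% of all promoters. One form or the other was present in 8 of the 11 ATF6 branch promoters found, and in none of the 19 of the ATF4 branch and the 7 of the XBP1 branch. Among all promoters, 0.132% held either form. These motifs were first described in genes of this kind, so the matches describe the list and are not a measurement of binding. The ATF4 composite element, TGATGNAA, stood in ATF3, CHAC1 and ASNS, 3 of the 19 ATF4 branch promoters, in HERPUD1, and in 3.19% of all promoters. The UPR element, TGACGTGG, stood in HYOU1 alone among the members and in 0.667% of all promoters.

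The stretches around the motifs in measured members are shown to set the ATF4 branch apart from the ATF6 branch, followed by XBP1, which is itself known as a target of ATF6. Each runs 5′ to 3′ on the gene's strand, with the fixed letters of the motif in capitals.
ATF3: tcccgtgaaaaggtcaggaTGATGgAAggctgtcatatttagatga
ASNS: gttggtcctcgcaggcaTGATGaAActtcc
CALR: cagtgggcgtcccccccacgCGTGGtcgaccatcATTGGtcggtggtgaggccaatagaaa
CANX: tcccggCCAATcttcacactCCACGaagaa
CRELD2: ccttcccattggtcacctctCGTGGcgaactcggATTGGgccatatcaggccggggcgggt
HYOU1: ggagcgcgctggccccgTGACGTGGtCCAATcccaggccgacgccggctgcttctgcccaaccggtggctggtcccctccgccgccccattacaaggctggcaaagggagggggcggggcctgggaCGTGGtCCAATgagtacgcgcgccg
SDF2L1: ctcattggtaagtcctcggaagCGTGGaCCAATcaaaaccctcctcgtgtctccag
XBP1: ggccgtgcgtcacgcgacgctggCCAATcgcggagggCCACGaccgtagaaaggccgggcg
The ATF3 stretch lies at chr1:212565197-212565242 on the plus strand, and the ASNS stretch at chr7:97872464-97872493 on the minus strand. CALR is at chr19:12938364-12938424, CANX at chr5:179698772-179698801, CRELD2 at chr22:49918534-49918594 and SDF2L1 at chr22:21642092-21642147, all on the plus strand. HYOU1 is at chr11:119057260-119057410 and XBP1 at chr22:28800584-28800644, both on the minus strand. All 8 lie upstream of the start site that RefSeq gives for the promoter. Those of ASNS and CANX also lie inside the gene's annotated span, which begins further upstream. In CALR and CRELD2 the element runs in the opposite direction, so it reads CGTGG, 9 bases, ATTGG. HYOU1 carries the second form of the element at 2 positions, also reversed, and the first of them shares its CGTGG with the UPR element.

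On the arrays as a whole, the replicates of CTRL and of gamma_ON correlated at r = 0.994 across genes and those of gamma_OFF at r = 0.986. The SD of the log2 values over genes was 1.76 and 1.78 in CTRL, 1.81 and 1.76 in gamma_ON, and 1.70 and 1.64 in gamma_OFF. With this narrower range, the 7442 brightest genes had a median log2 difference of -0.10 in gamma_OFF against CTRL and the other 7442 genes one of 0.14. Of the 30 members, 26 were among the brightest 7442. The deposited values were therefore also compared after quantile normalization and after centring and scaling each array. Some directions that depend on this are named beside the result, but not those of every gene. Levels of summed pluripotency markers (9 of 10 measured, among them POU5F1, SOX2, LIN28A and DNMT3B) ranged from 14.06 to 14.12 in CTRL, 14.22 to 14.28 in gamma_ON and 14.32 to 14.34 in gamma_OFF, on the log2 scale. By limma at an adjusted p under 0.05, POU5F1 (log2 fold change 0.71) and GDF3 (1.98) were higher in gamma_ON than in CTRL. DNMT3B (0.46) and PRDM14 (0.54) were higher in gamma_OFF. Over all genes 0.739% and 2.77% were called higher in these comparisons. In each, 2 of the 9 had negative differences, DPPA4 among them (-0.12 and -0.16). In bulk RNA, fewer cells of a type and less RNA per cell cannot be told apart.

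The comparisons with CTRL addressed what each H2A.X vector changed in these pathways. In gamma_OFF, 6 of the 30 members fell against CTRL and 0 rose by limma's test at an adjusted p under 0.05. The 6 were ATF3, DDIT3, VLDLR and STC2 of the ATF4 branch and the factors XBP1 and EIF2AK3. Among all genes, 8.85% were called in this comparison, 2.77% higher and 6.08% lower. In gamma_ON, 0 of the 30 members were called against CTRL, where 1.55% of all genes were (0.739% higher and 0.806% lower), and 9 of the 30 members had an unadjusted p under 0.05, as did 2203 of all 14884 genes. In gamma_OFF 13 of the 30 members and 4519 of all genes had one. Between the vectors SEL1L was higher in gamma_ON than in gamma_OFF, the 1 member called of 30, against 5.99% of all genes (3.98% higher and 2.02% lower). The F test over the 3 groups called 3 members, ATF3, VLDLR and SEL1L, against 8.32% of all genes.

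Both gamma_ON arrays lay below both CTRL arrays for 15 members and above them for 6, against 22.3% and 30.0% of all genes. In gamma_OFF the counts were 18 below and 3 above, against 30.2% and 31.1% of all genes. Of the 7442 brightest genes, which held 26 of the 30 members, 23.8% lay below in gamma_ON and 43.6% in gamma_OFF.

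**Figure D1:**
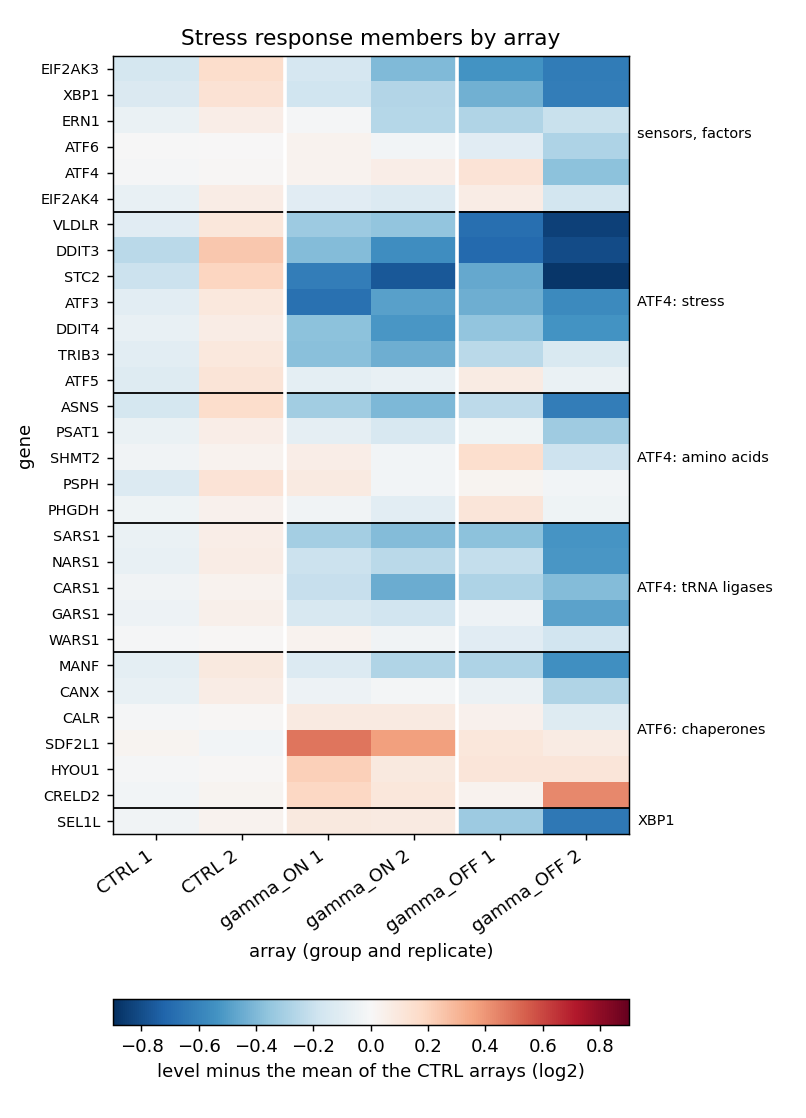
Each cell is a member's log2 level on an array minus its mean on the CTRL arrays, with genes in rows by role and arrays in columns. The stress regulators are blue on most gamma_ON and gamma_OFF arrays, SDF2L1 is red in gamma_ON, and EIF2AK3, XBP1 and SEL1L are deepest blue in gamma_OFF.

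The factors and sensors are described first. ATF4 itself stood at 10.56 and 10.58 in CTRL, 10.60 and 10.63 in gamma_ON, and 10.69 and 10.20 in gamma_OFF (log2 levels, replicates 1 and 2). The gamma_OFF arrays lay on either side of CTRL, and the log2 differences from CTRL were 0.05 (SE 0.16, adjusted p = 0.927) in gamma_ON and -0.13 (SE 0.16, adjusted p = 0.616) in gamma_OFF. The sign in gamma_OFF turned to 0.26 for ATF4, gamma_OFF vs CTRL, after centring and scaling.

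EIF2AK3 encodes PERK, the ER kinase upstream of ATF4. Its log2 levels were 8.22 and 8.54 in CTRL, 8.23 and 7.98 in gamma_ON, and 7.84 and 7.75 in gamma_OFF. Both gamma_OFF arrays lay below both CTRL arrays, while gamma_ON replicate 1 lay within the CTRL range. EIF2AK3 was 1.50-fold lower in gamma_OFF (log2 fold change -0.58, SE 0.15, adjusted p = 0.0434) and had a log2 difference of -0.28 (SE 0.15, adjusted p = 0.434) in gamma_ON. The gamma_OFF call was lost after quantile normalization (adjusted p = 0.0712) and after centring and scaling (adjusted p = 0.0675). The other eIF2α kinase of the list, EIF2AK4, which senses uncharged tRNA, differed from CTRL by -0.12 in gamma_ON and -0.05 in gamma_OFF, with adjusted p-values of 0.745 and 0.813.

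XBP1, the factor made active by IRE1 splicing, read 8.73 and 8.99 in CTRL, 8.68 and 8.60 in gamma_ON, and 8.43 and 8.24 in gamma_OFF. All 4 arrays of the H2A.X vectors lay below the CTRL arrays, with gamma_OFF lowest. The gene fell 1.44-fold in gamma_OFF (log2 fold change -0.53, SE 0.14, adjusted p = 0.0459), and its log2 difference in gamma_ON was -0.22 (SE 0.14, adjusted p = 0.497). The adjusted p in gamma_OFF was 0.0942 after quantile normalization and 0.11 after centring and scaling. The array reading of XBP1 does not separate the spliced from the unspliced mRNA. ERN1, which encodes IRE1, read 6.2 and 6.31 in CTRL, 6.25 and 6.0 in gamma_ON, and 5.99 and 6.06 in gamma_OFF. Its difference in gamma_OFF was -0.23 (SE 0.13, adjusted p = 0.245). ATF6 read 9.35 and 9.36 in CTRL, 9.39 and 9.33 in gamma_ON, and 9.25 and 9.07 in gamma_OFF. The gamma_OFF arrays of ATF6 were both below CTRL, by -0.19 on average (SE 0.12, adjusted p = 0.298), but this difference was -0.03 after quantile normalization and 0.06 after centring and scaling for ATF6, gamma_OFF vs CTRL.

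The stress regulators of the ATF4 branch had the lowest median of the member lists in both comparisons with CTRL. All 7 measured members had negative log2 differences in gamma_ON (median -0.45), and 6 of 7 had them in gamma_OFF (median -0.51). The median of all genes was 0.02 and 0.01 in these comparisons. The counts were the same under quantile normalization and under centring and scaling, with medians of -0.46 and -0.43 in gamma_ON and -0.51 and -0.50 in gamma_OFF. In each vector, 6 of the 7 had both arrays below both CTRL arrays, a pattern that 22.3% of all genes showed in gamma_ON and 30.2% in gamma_OFF. Among the 7442 brightest genes these shares were 23.8% and 43.6%. The 2 comparisons share the CTRL arrays.

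VLDLR, a lipoprotein receptor gene that ATF4 induces, had the lowest adjusted p of the members. Its log2 levels were 8.57 and 8.76 in CTRL, 8.34 and 8.31 in gamma_ON, and 7.98 and 7.83 in gamma_OFF. The 3 groups did not overlap, with CTRL highest and gamma_OFF lowest. VLDLR fell 1.69-fold in gamma_OFF (log2 fold change -0.76, SE 0.12, adjusted p = 0.0123). In gamma_ON its log2 difference was -0.34 (SE 0.12, adjusted p = 0.243), and between the vectors it was 0.42 (SE 0.12, adjusted p = 0.0711).

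DDIT3 encodes CHOP, a transcription factor that links prolonged ER stress to cell death. The gene read 5.51 and 6.0 in CTRL, 5.36 and 5.20 in gamma_ON, and 5.06 and 4.95 in gamma_OFF. DDIT3 was the dimmest member, with a mean level of 5.35 against a median of 7.12 over all genes. The order of the groups was that of VLDLR, without overlap, but the CTRL arrays were further apart. DDIT3 was 1.68-fold lower in gamma_OFF (log2 fold change -0.75, SE 0.17, adjusted p = 0.0302). The difference in gamma_ON was -0.48 (SE 0.17, adjusted p = 0.214), and that between the vectors 0.28 (SE 0.17, adjusted p = 0.262).

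ATF3, a transcription factor induced by many stresses, read 7.22 and 7.42 in CTRL, 6.65 and 6.83 in gamma_ON, and 6.88 and 6.75 in gamma_OFF. The arrays of the H2A.X vectors overlapped one another and lay below CTRL. ATF3 fell 1.42-fold in gamma_OFF (log2 fold change -0.51, SE 0.13, adjusted p = 0.0465), and in gamma_ON its log2 difference was -0.58 (SE 0.13, adjusted p = 0.0706). The vectors differed from each other by -0.07 (SE 0.13, adjusted p = 0.710). The call in gamma_OFF is near the threshold, with adjusted p-values of 0.0551 after quantile normalization and 0.0548 after centring and scaling.

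STC2, which encodes a secreted glycoprotein induced by ER stress, read 8.78 and 9.18 in CTRL, 8.36 and 8.22 in gamma_ON, and 8.52 and 8.10 in gamma_OFF. Here too both vectors lay below CTRL and overlapped each other. STC2 was 1.59-fold lower in gamma_OFF (log2 fold change -0.67, SE 0.18, adjusted p = 0.0497), and its log2 difference in gamma_ON was -0.69 (SE 0.18, adjusted p = 0.101). The adjusted p in gamma_OFF was 0.097 after quantile normalization.

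**Figure D2:**
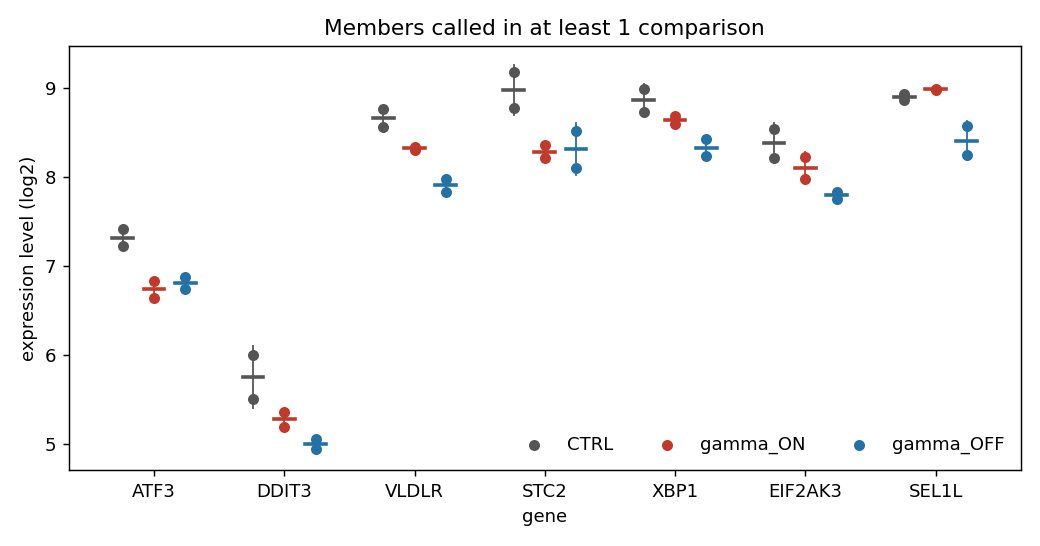
Points are log2 levels on single arrays for the 7 members called in at least 1 comparison, horizontal bars are means of 2 arrays, and vertical lines span the mean plus and minus 1 SD. VLDLR, DDIT3, XBP1 and EIF2AK3 have their lowest points in gamma_OFF, ATF3 and STC2 are similarly low in both H2A.X vectors, and SEL1L is low in gamma_OFF alone.

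The remaining stress regulators were not called. DDIT4, which encodes the mTORC1 inhibitor REDD1, read 8.63 and 8.77 in CTRL, 8.33 and 8.17 in gamma_ON, and 8.34 and 8.16 in gamma_OFF. Its log2 difference was -0.45 (SE 0.13) in each vector, with adjusted p-values of 0.137 in gamma_ON and 0.0601 in gamma_OFF. TRIB3, a pseudokinase gene that ATF4 and CHOP induce, read 7.79 and 7.97 in CTRL, 7.50 and 7.44 in gamma_ON, and 7.64 and 7.74 in gamma_OFF. It was the member with the lowest log2 difference between the vectors, -0.22 (SE 0.12, adjusted p = 0.232), and lay below CTRL in both. ATF5, a transcription factor whose mRNA is also favoured under eIF2α phosphorylation, differed by -0.08 in gamma_ON and 0.01 in gamma_OFF, and its arrays overlapped CTRL in both.

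The amino acid synthesis genes stayed close to CTRL, with medians of -0.06 in gamma_ON and -0.02 in gamma_OFF, and none of the 5 was called in either, while 0 and 1 had an unadjusted p under 0.05, against 2203 and 4519 of all 14884 genes. ASNS, asparagine synthetase and a standard reporter of ATF4 activity, had the lowest values of the 5. It read 9.18 and 9.50 in CTRL, 9.03 and 8.93 in gamma_ON, and 9.10 and 8.72 in gamma_OFF. All 4 arrays of the H2A.X vectors lay below CTRL, at -0.36 (SE 0.16, adjusted p = 0.349) and -0.43 (SE 0.16, adjusted p = 0.119). The serine and one-carbon genes PSAT1, PHGDH, PSPH and SHMT2 had differences between -0.18 and 0.04. After quantile normalization the median of the 5 in gamma_OFF turned to 0.13, and after centring and scaling to 0.19.

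The tRNA ligase genes, which charge tRNAs with amino acids, had medians of -0.22 in gamma_ON and -0.33 in gamma_OFF. None of the 5 was called in either, while 2 and 3 had an unadjusted p under 0.05, against the same 2203 and 4519 of all 14884 genes. SARS1, the seryl-tRNA ligase gene, read 8.66 and 8.79 in CTRL, 8.42 and 8.33 in gamma_ON, and 8.36 and 8.19 in gamma_OFF. Its groups did not overlap CTRL, with differences of -0.35 (SE 0.12, adjusted p = 0.214) and -0.45 (SE 0.12, adjusted p = 0.0522). CARS1, for cysteine, was lower by a similar amount, -0.32 and -0.33, and GARS1 and NARS1, for glycine and asparagine, by -0.16 and -0.22 in gamma_ON and -0.26 and -0.37 in gamma_OFF. WARS1, for tryptophan, differed by 0.00 and -0.14. A dimmer row of WARS1 gave -0.04 and 0.43, so its rows disagree in gamma_OFF. The gamma_OFF median of the 5 genes was -0.20 after quantile normalization and -0.03 after centring and scaling.

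The ATF6 branch was mixed in sign. Of its 6 measured genes, 2 had negative log2 differences in gamma_ON and 3 in gamma_OFF. The 6 genes had median log2 differences of 0.11 in gamma_ON and 0.02 in gamma_OFF, against -0.32 and -0.33 for the 17 genes of the ATF4 branch. None of the 6 was called in any comparison, while 1 had an unadjusted p under 0.05 in each, against 2203 of all genes in gamma_ON, 4519 in gamma_OFF and 4910 between the vectors. The difference between branches was not tested, since 6 chosen genes and 17 chosen genes are not samples. Without gamma_OFF replicate 1 the ATF6 branch median in gamma_OFF was -0.0229. Under centring and scaling the ATF6 branch medians were 0.03 and 0.28, and the ATF4 branch medians -0.34 and -0.09.

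SDF2L1, which encodes a BiP-associated ER protein, had the highest log2 difference of the members in gamma_ON. It read 7.10 and 7.06 in CTRL, 7.56 and 7.45 in gamma_ON, and 7.18 and 7.15 in gamma_OFF. Both gamma_ON arrays lay above the other 4, with a log2 difference from CTRL of 0.42 (SE 0.11, adjusted p = 0.115) and from gamma_OFF of 0.34 (SE 0.11, adjusted p = 0.0888). In gamma_OFF the difference from CTRL was 0.09 (SE 0.11, adjusted p = 0.625).

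HYOU1, an ER chaperone that acts as an exchange factor for BiP, read 10.25 and 10.28 in CTRL, 10.48 and 10.35 in gamma_ON, and 10.38 and 10.37 in gamma_OFF. The groups did not overlap CTRL, but the differences were only 0.15 and 0.11 (SE 0.11 for both, adjusted p = 0.597 and 0.536). CRELD2, a secreted ER stress protein, read 6.72 and 6.77 in CTRL, 6.94 and 6.85 in gamma_ON, and 6.78 and 7.18 in gamma_OFF. Its gamma_OFF arrays were far apart, and the difference of 0.23 (SE 0.15, adjusted p = 0.307) rested mostly on replicate 2. CALR, the calcium-binding lectin chaperone calreticulin, read 12.43 and 12.45 in CTRL, 12.52 and 12.52 in gamma_ON, and 12.48 and 12.32 in gamma_OFF. CANX, its membrane-bound relative calnexin, differed from CTRL by -0.03 in gamma_ON and -0.16 in gamma_OFF. Of the 6 ATF6 branch genes, 3 were negative in gamma_OFF as deposited and 1 after centring and scaling. CALR was then called higher in gamma_OFF than in CTRL.

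MANF, a secreted ER protein with neurotrophic activity, had the lowest log2 differences of the ATF6 branch against CTRL. It read 7.44 and 7.62 in CTRL, 7.41 and 7.26 in gamma_ON, and 7.26 and 6.98 in gamma_OFF, so that both vectors lay below CTRL. The differences were -0.20 (SE 0.14, adjusted p = 0.569) and -0.42 (SE 0.14, adjusted p = 0.0879).

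SEL1L, an adaptor of the ER-associated degradation ligase, was the only measured gene of the XBP1 branch, so nothing is said of the branch as a whole. Its log2 levels were 8.87 and 8.93 in CTRL, 8.99 and 8.98 in gamma_ON, and 8.57 and 8.25 in gamma_OFF. Both gamma_OFF arrays lay below all other arrays, and gamma_ON lay slightly above CTRL. SEL1L was 1.49-fold higher in gamma_ON than in gamma_OFF (log2 fold change 0.57, SE 0.13, adjusted p = 0.0453). Against CTRL it differed by -0.49 in gamma_OFF (SE 0.13, adjusted p = 0.0542) and by 0.09 in gamma_ON (SE 0.13, adjusted p = 0.833). The difference between the vectors was 0.37 after quantile normalization and 0.36 after centring and scaling, with adjusted p-values of 0.126 and 0.124. With 1 array of either vector left out, the SEL1L difference between the vectors ranged from 0.42 to 0.73. Leaving out a CTRL array kept it at 0.57 and changed only the estimate of the spread. With single arrays left out, SEL1L stayed called only without gamma_OFF replicate 1.

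**Figure D3:**
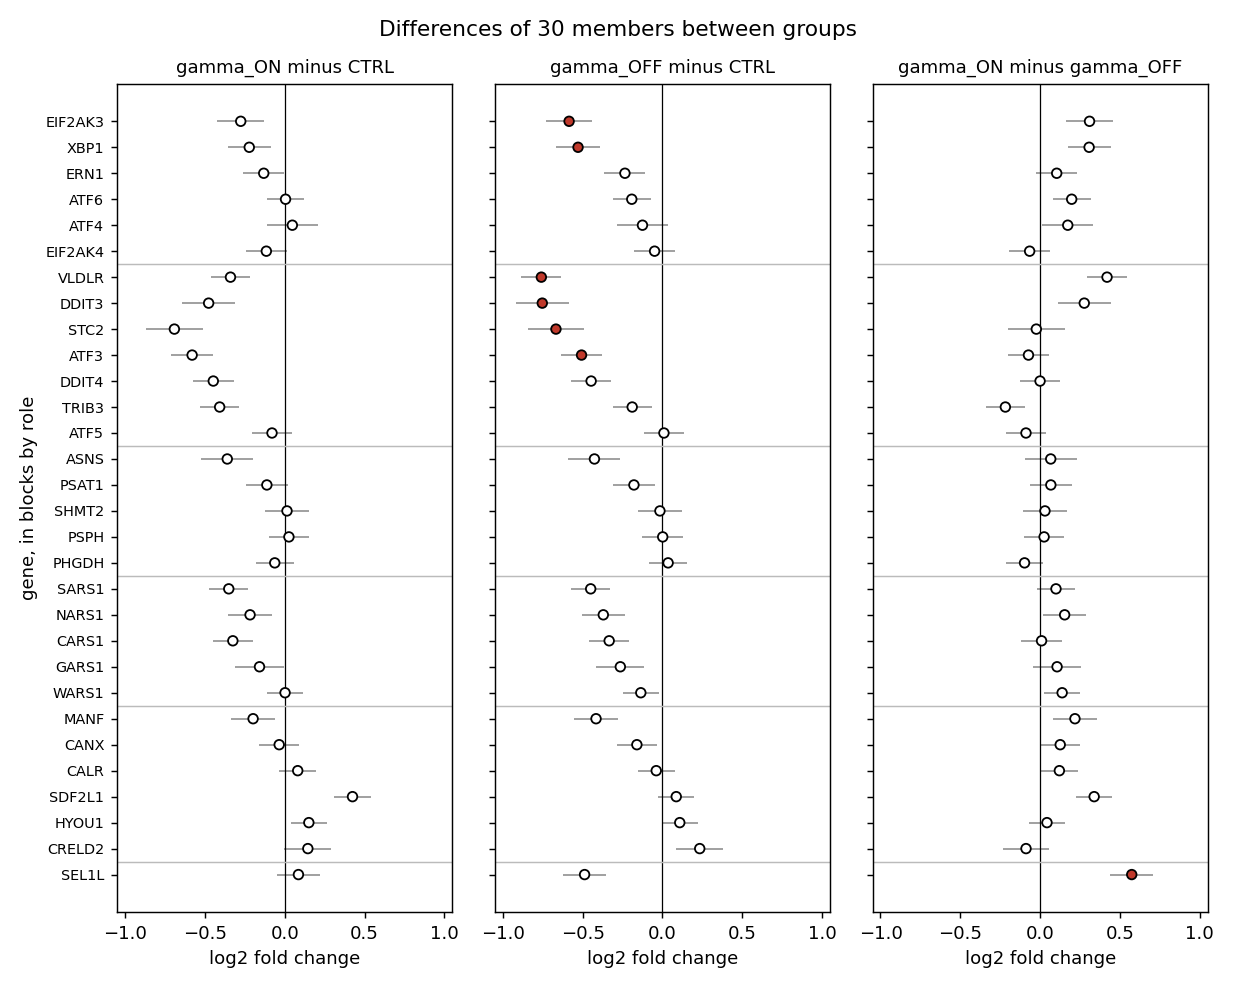
Circles are log2 fold changes of the 30 members in each of the 3 comparisons, lines span 1 standard error to each side, and red circles are called at an adjusted p under 0.05. The first 2 panels share the CTRL arrays; the red circles are 6 in gamma_OFF against CTRL, 1 between the vectors and 0 in gamma_ON against CTRL.

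Between the 2 H2A.X vectors, the ATF4 branch had a median difference of 0.03 and the ATF6 branch one of 0.12. Of the 30 members, 11 had both gamma_ON arrays above both gamma_OFF arrays and 2 had both below, against 35.8% and 27.6% of all genes and 54.9% and 14.2% of the 7442 brightest genes. These medians turned to -0.15 and 0.04 after quantile normalization, and to -0.17 and -0.25 after centring and scaling. The direction of either branch between the vectors therefore depends on the scaling.

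The calls changed when single arrays were left out, among the members as among all genes. Leaving out an array of the group not compared keeps the log2 fold changes and changes only the estimate of the spread. CTRL replicate 2 lay above CTRL replicate 1 in 29 of the 30 members and in all 17 of the ATF4 branch, by a median of 0.14 in that branch, while 49.4% of all genes had replicate 2 higher. In gamma_OFF replicate 2 was the higher one in 3 of 30 members, against 50.5% of all genes. Without CTRL replicate 2, 0 of 30 members and 0.880% of all genes were called in gamma_OFF, and the 6 genes named above had adjusted p-values from 0.111 for VLDLR to 0.282 for STC2. Without CTRL replicate 1, DDIT3 and VLDLR were called, with 1.27% of all genes. VLDLR was also the 1 member called without gamma_OFF replicate 2 and without either gamma_ON array, settings that called 2.61% and 3.81% of all genes. Without gamma_OFF replicate 1, 14 members were called, 13 lower and 1 higher, with 23.6% of all genes. The ATF4 branch median in gamma_ON was -0.20 without CTRL replicate 2, and in each array of both H2A.X vectors the branch median lay below that of either CTRL array. For 10 of the 17 genes the gamma_ON mean lay below the CTRL mean by more than the gap between the CTRL arrays, and for 13 of 17 the gamma_OFF mean did. Of all 30 members, 12 and 22 did. The share of all genes was not computed, so no excess can be read from these counts.

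**Figure D4:**
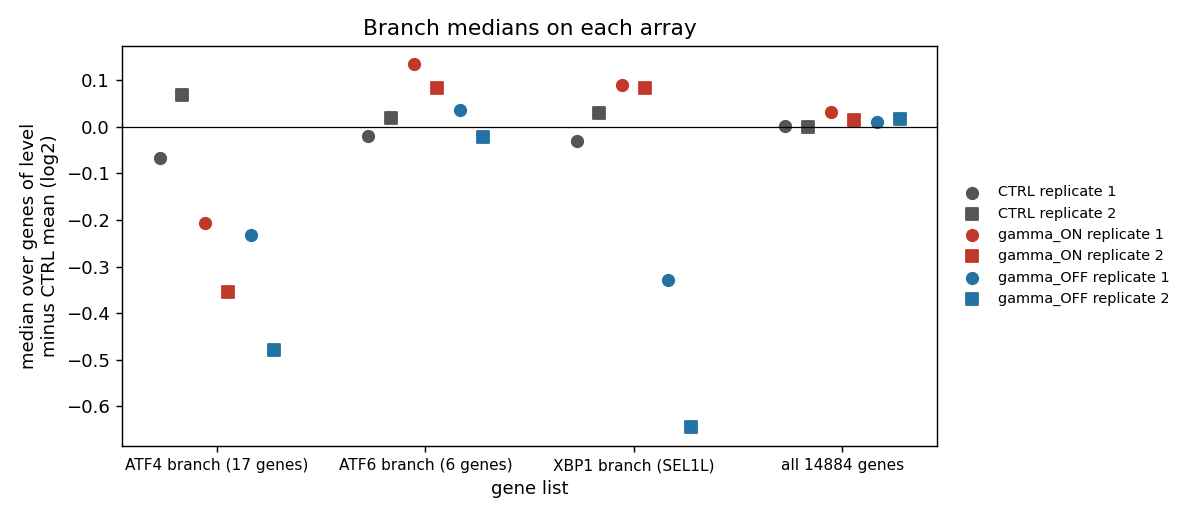
Each point is the median over a branch's genes of the log2 level on an array minus the gene's CTRL mean, with all 14884 genes for comparison. The ATF4 branch lies at -0.07 and 0.07 in CTRL, -0.21 and -0.35 in gamma_ON and -0.23 and -0.48 in gamma_OFF, while the ATF6 branch stays between -0.02 and 0.13 and SEL1L is low on the gamma_OFF arrays.

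Other genes of the same pathways were counted from lists made by function, also with earlier results of these data known. Of 24 measured further ATF4 pathway genes, 2 fell and 0 rose in gamma_ON, and 4 fell and 0 rose in gamma_OFF, with medians of -0.10 and -0.19. Over all genes 0.806% fell in gamma_ON and 6.08% in gamma_OFF. GDF15, which encodes a stress-induced cytokine, fell in both vectors, with log2 fold changes of -1.40 (SE 0.16, adjusted p = 0.00419) in gamma_ON and -1.47 (SE 0.16, adjusted p = 0.00372) in gamma_OFF. It read 9.19 and 9.51 in CTRL, 7.94 and 7.96 in gamma_ON, and 7.68 and 8.07 in gamma_OFF, so that the vectors lay together below CTRL by more than any member did. VEGFA, an angiogenic growth factor gene that ATF4 can induce, also fell in both, by log2 fold changes of -0.59 and -0.69. SESN2, a stress-induced inhibitor of mTORC1, and KLHL24 fell in gamma_OFF, at -0.51 and -0.71. The median of the 24 genes in gamma_OFF turned to 0.05 after centring and scaling.

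Among 34 measured further ER genes, 5 fell and 0 rose in gamma_OFF against CTRL, where 6.08% of all genes fell. Of 17 measured folding and degradation genes, 2 fell in gamma_OFF, FKBP7, a prolyl isomerase gene, at -0.63 and ERLEC1, an ER lectin gene, at -0.53 on the log2 scale. FKBP7 was also higher in gamma_ON than in gamma_OFF, by 0.87. Of 17 measured genes of ER translocation and transport, 3 fell in gamma_OFF. They were SRP54 of the signal recognition particle at -0.58, KDELR3, a retrieval receptor gene, at -0.73, and OSTC of the oligosaccharyl transferase at -0.80. SRP54 was higher in gamma_ON than in gamma_OFF. In gamma_ON against CTRL, 0 of these 34 genes were called, with 0 and 2 at an unadjusted p under 0.05 in the 2 lists. The medians in gamma_OFF were -0.32 and -0.33, and over both lists together -0.18 after quantile normalization and -0.07 after centring and scaling. Negative differences were found for 31 of the 34 as deposited, 28 after quantile normalization and 21 after centring and scaling. Of the 7442 brightest genes, 65.1%, 49.0% and 41.5% were negative in the same order.

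Markers of other cells the clones could hold also differed between groups. The summed log2 level of 15 measured endoderm and hepatic secretory genes, out of 16 listed, was 12.23 and 11.85 in CTRL, 13.69 and 13.79 in gamma_ON, and 11.51 and 11.54 in gamma_OFF. Of these 15 genes 8 rose in gamma_ON, AFP and the fibrinogen genes among them, and 2 rose and 4 fell in gamma_OFF. Over all genes 0.739% rose and 0.806% fell in gamma_ON, and 2.77% rose and 6.08% fell in gamma_OFF. The endoderm regulators SOX17, FOXA2, GATA6 and GATA4 were not called in gamma_ON against CTRL, with differences of 0.02, 0.08, 0.30 and 0.11. GATA6 was lower in gamma_OFF than in CTRL (-0.56, adjusted p = 0.0433) and higher in gamma_ON than in gamma_OFF (0.86, adjusted p = 0.0167). SOX17, FOXA2 and GATA4 were not called in either of these comparisons. SDF2L1 and SEL1L were among the 6 of 30 members with both gamma_ON arrays above both CTRL arrays. The other direction, both below, held for 15 members. Over all genes these shares were 30.0% and 22.3%. The 5 measured fibroblast markers, out of 11 listed, summed to 11.23 and 11.03 in CTRL, 11.22 and 11.20 in gamma_ON, and 10.67 and 10.56 in gamma_OFF. Of these 5, TAGLN fell in both vectors (-0.62 and -0.55) and VIM in gamma_OFF (-0.84), while LUM differed by 0.86 in gamma_ON (adjusted p = 0.0789). The 6 neuroectoderm markers summed to 11.31 and 11.30 in CTRL, 11.04 and 10.96 in gamma_ON, and 11.11 and 11.01 in gamma_OFF. ZIC1 fell in both vectors (-0.64 and -0.67) and NES in gamma_OFF (-0.49). Among 9 measured immediate early genes, which respond to handling of cells, JUN fell in both vectors (log2 fold changes of -0.89 in gamma_ON and -1.31 in gamma_OFF) and IER3 in gamma_OFF (-0.65). The part of any of these in the differences of the stress genes was not tested.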

How the data were processed

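Total RNA of 6 samples was hybridised to 1 Affymetrix gene array each. The authors deposited log2 expression values per array row. Per the submitters' processing notes, RMA and Partek 6.6 were used. For the order of the steps, their options and the authors' annotation nothing is stated (not given in the sources used here). From the values, the unit was read as log2.

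The table held 53617 rows. GEO's platform annotation gave 16098 rows 1 gene symbol, 0 several and 37519 none, which left 14884 genes at the row with the highest mean. No genes were filtered out. Sample descriptions gave the group and replicate of each array. limma 3.58.1 in R 4.3.3 (lmFit, eBayes) was fitted over all genes and 6 arrays, with 3 residual and 6.05 prior degrees of freedom. All adjusted p-values are limma's, two-sided for contrasts, adjusted by Benjamini-Hochberg over the 14884 genes and called under 0.05. Gene lists were described by counts and medians and not tested. The scripts were tested on simulated data. Promoters came from a RefSeq table of GRCh38.p14.

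The members and lists were chosen with earlier results of these data known. Values were to be named for every called member, the sensors and factors, DDIT3, ASNS, and the highest and lowest member of each branch in each comparison. Further members, and the values given without an array or scaling, were picked after their values were seen. Alternatives changed the arrays, the scaling, the model of the spread, dim genes, the rows and the threshold.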

Additional observations from a re-analysis of the deposited data

How the results depend on the processing

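Members called in gamma_ON against CTRL numbered 0, and 1 with the fit on the 2 groups alone, an intensity trend, dim genes left out, or a threshold of 0.10. With array weights 4 were called (ATF3, DDIT4 and STC2 lower, SDF2L1 higher). In gamma_OFF against CTRL the 6 calls became 2 after quantile normalization, 1 with the 2 groups alone or array weights, 10 at 0.10, and 0 to 14 with 1 array left out. Centring and scaling left DDIT3 and VLDLR lower and called 2 others, CALR and HYOU1, higher. Over all genes it also moved the share of lower calls in this comparison from 68.7% to 56.4%. Between the vectors the 1 call became 0 with the 2 groups alone, array weights or quantile normalization, 2 with a trend, and 3 with dim genes left out or at 0.10. Centring and scaling called 3 others, PSAT1, PHGDH and CALR, lower in gamma_ON. The 3 calls of the F test became 9 with a trend, 8 with dim genes left out, 1 after quantile normalization, 10 at 0.10, and 0 to 11 with 1 array left out. Robust fitting and the mean over a gene's rows kept all counts within 1.5 times. The share of all genes called moved as well. In gamma_ON it went from 1.55% to 5.40% with array weights and 4.18% with dim genes left out. It was 3.27% with the 2 groups alone and 2.59% with a trend. In gamma_OFF it went from 8.85% to 6.32% after quantile normalization and 5.15% with array weights. It was 3.81% with the 2 groups alone and 8.30% after centring and scaling. Between the vectors 5.99% became 1.54% with array weights, 10.9% with a trend and 20.1% with dim genes left out. It was 1.85% with the 2 groups alone, 3.15% after quantile normalization and 5.54% after centring and scaling. For the F test 8.32% became 13.7% with a trend, 22.4% with dim genes left out and 5.66% after quantile normalization. The share of all genes at a threshold of 0.10 was not computed, so no excess can be read from those counts. VLDLR in gamma_OFF was called in 15 of 16 alternatives, DDIT3 in 9 of 15, STC2, XBP1 and EIF2AK3 each in 6 of 16, ATF3 in 5 of 15, and SEL1L between the vectors in 7 of 16. The cause of these changes was not tested. The alternatives are not separate checks. Leaving out either array of the group not compared gave the same fit of a comparison as the 2 groups alone. A threshold of 0.10 cannot lose a call.

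Replicate numbers did not pair the samples: deviations of same-numbered arrays correlated at -0.0962, -0.0735 and 0.088 for the 3 group pairs. With the replicate number as a block, gamma_OFF against CTRL kept 2 calls, DDIT3 and VLDLR, with 8.36% of all genes called. The F test kept 1, VLDLR, with 7.85% of all genes. The member counts of the other comparisons did not change, with 1.41% of all genes called in gamma_ON and 5.85% between the vectors.

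Branch medians that moved with the scaling were as follows. In gamma_OFF against CTRL the ATF4 branch had -0.20 after quantile normalization and -0.093 after centring and scaling, SEL1L had -0.35 and -0.31, and the ATF6 branch 0.28 after centring and scaling. In gamma_ON against CTRL the ATF6 branch had 0.0325 after centring and scaling. Between the vectors, quantile normalization and centring and scaling gave -0.15 and -0.17 for the ATF4 branch, 0.0443 and -0.25 for the ATF6 branch, and 0.37 and 0.36 for SEL1L. With 1 array left out, the ATF4 branch ranged from -0.35 to -0.20 in gamma_ON, -0.48 to -0.23 in gamma_OFF and -0.0939 to 0.18 between the vectors. The ATF6 branch ranged from 0.0606 to 0.22 between the vectors. SEL1L ranged from -0.65 to -0.33 in gamma_OFF and 0.42 to 0.73 between the vectors. With targets shared by several branches left out, the XBP1 branch had no gene and gave no value. Array signal over background was not analysed here.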
